A study of Mus musculus with 4 samples.

Results

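Described here are 10 mouse genes of inflammatory and regulatory cytokines: Il6, Tnf, Il10, Il15, Il15ra, Lta, Ltb, Osm, Csf1 and Csf2. They were taken by symbol from 55450 gene rows, and all 10 were among the 18297 genes with enough reads to be tested. RNA came from CD11c+ cells that were enriched with magnetic beads from mesenteric lymph nodes of wild-type C57BL/6J mice. Cells pooled from 2 nodes were divided between an agonist well, which received an Ffar2 agonist at 10 µM, and a control well, which received water, and both wells were kept for 6 h at 37C before RNA isolation. This gave 2 agonist libraries and 2 control libraries, numbered 2 and 3 in their titles, and the cells behind each number are called pool 2 and pool 3. Ffar2 senses short-chain fatty acids that gut bacteria release, and the data address what its agonist did to cytokine transcripts. The compound's name and the age and sex of the mice were not given in the sources used here.

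Cytokines are secreted or surface proteins through which immune cells instruct each other. Dendritic cells of the gut-draining nodes present antigen to T cells, and the cytokines they make at the same time help to decide whether the T cell response becomes inflammatory or tolerant. IL-6, TNF and oncostatin M promote inflammation, IL-10 restrains it, and IL-15 presented on its receptor alpha chain sustains CD8+ T cells and NK cells. Lymphotoxins alpha and beta maintain lymph node architecture, and the colony-stimulating factors encoded by Csf1 and Csf2 drive the growth and survival of macrophages and other myeloid cells.

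Libraries held 43238375 to 59902172 reads in genes. CD11c+ enrichment by beads leaves other leukocytes in a preparation, and the markers of several cell types were read. Itgax, which encodes CD11c, had 9265 and 5415 reads in the agonist libraries and 8220 and 5508 in the control libraries, and all 12 dendritic cell markers were detected in every library. All 10 T cell, 8 B cell and 10 monocyte and macrophage markers were also detected in every library. Of 6 neutrophil markers 5 were detected in every library, at a sum of 12.5 and 12.3 CPM (counts scaled to a common library size) in the agonist libraries and 20.8 and 7.27 CPM in the control libraries, and Ly6g was at 0 in all of them. Of the sex-linked genes, Xist was at 0 in pool 3 and at 21194 and 17776 reads in the wells of pool 2, while the Y-linked Ddx3y was at 21461 and 18752 reads in pool 3 and at 0 in pool 2. A difference between the pools therefore cannot be told apart from the sex of the mice. Among tested genes, those more than 1 log2 unit higher in the agonist than in the control well numbered 1038 in pool 3 and 2534 in pool 2, and those more than 1 log2 unit lower numbered 1748 in pool 3 and 1620 in pool 2.

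Per transcript length the members spanned a wide range. In TPM, a level scaled for depth and for gene length (the union of a gene's exons), the mean was 363 ± 25.5 for Il15ra, 142 ± 64.2 for Il15 and 61.7 ± 21.2 for Il6 (SD over the 4 libraries). In TPM, the ranges of these 3 genes over the 4 libraries did not overlap. Osm at 28.9 ± 6.91, Tnf at 23.4 ± 12.4, Ltb at 18.1 ± 13.8 and Lta at 14.1 ± 7.42 TPM followed, and neighbours in this order overlapped, so their order was not resolved. Lta in turn overlapped with Il10, at 5.95 ± 3.09 TPM. Csf2 at 1.16 ± 0.827 and Csf1 at 0.662 ± 0.465 TPM were the lowest and overlapped with each other. Among all tested genes ranked by mean TPM, Il15ra stood at place 389, Il15 at 1108 and Il6 at 2403, against 14647 for Csf2 and 16080 for Csf1.

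**Figure D1:**
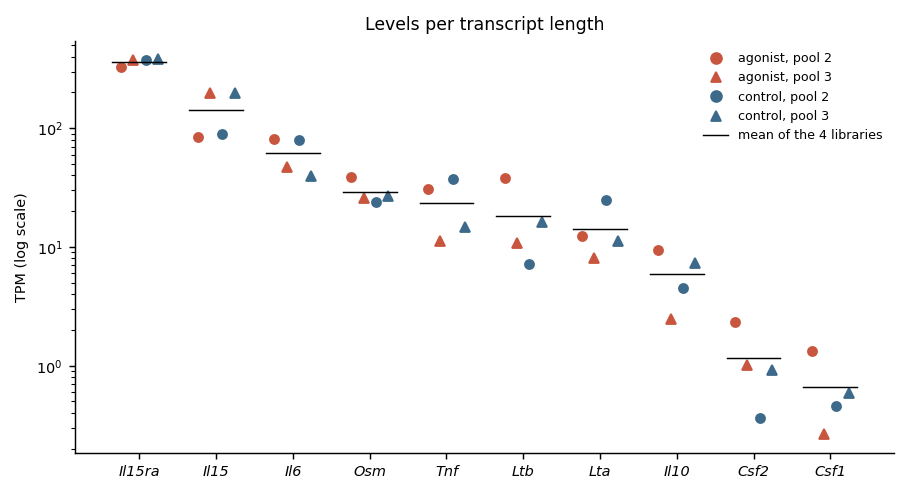
Level of each cytokine gene in TPM on a log scale in the 4 libraries, with agonist (red) left of control (blue) and pool 2 as circles and pool 3 as triangles. The lines mark the mean of the 4 libraries, from 363 TPM for Il15ra to 0.662 TPM for Csf1.

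The agonist left no cytokine gene past the test. With edgeR's quasi-likelihood test over all genes (Benjamini-Hochberg threshold 0.05), 0 of the 10 members were called, and 0% of all tested genes were. Counting unadjusted p values under 0.05 gave 0 members as well, against 1.58% of all genes, and limma-voom and DESeq2 called 0 members as well. Over all genes DESeq2 called 7, which is 0.0383%, and limma-voom called 0. Of the members 5 were higher and 5 lower with the agonist, with a median log2 fold change of 0.02, against -0.05 over all tested genes. Every adjusted p was 0.9999. With the pool as a replicate block 0 members and 0.00547% of all genes, which is 1 gene, were called, 0 members against 3.53% of all genes had an unadjusted p under 0.05, and the smallest of a member was 0.0742, that of Lta. With 2 libraries a group, the 95% intervals given for each gene are wide, and p-values measure the spread between these pools and wells. Unless the block is named, these intervals are from the fit with group alone, in which the difference between the pools counts as spread. Because the RNA is from mixed cells, fewer cells of a type and less RNA per cell cannot be told apart.

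In CPM, the agonist and control libraries did not overlap for 2 members, Osm and Csf2, against 25% of all tested genes. For Osm this rested on 19.2 CPM in agonist replicate 3 against 18.8 CPM in control replicate 3. In TPM its libraries overlapped, at 26 in agonist replicate 3 and 26.7 in control replicate 3. Within same-numbered wells, 6 of the 10 members moved in opposite directions in the pools, and so did 50.6% of all tested genes. In CPM, Osm and Csf2 were higher in the agonist well of both pools, and Tnf and Lta were lower in both. The member differences were larger in pool 2, with a median absolute log2 difference of 0.3 in pool 3 and 0.77 in pool 2. The intervals given below for a within-pool difference are exact intervals for the ratio of the counts and cover counting error only.

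**Figure D2:**
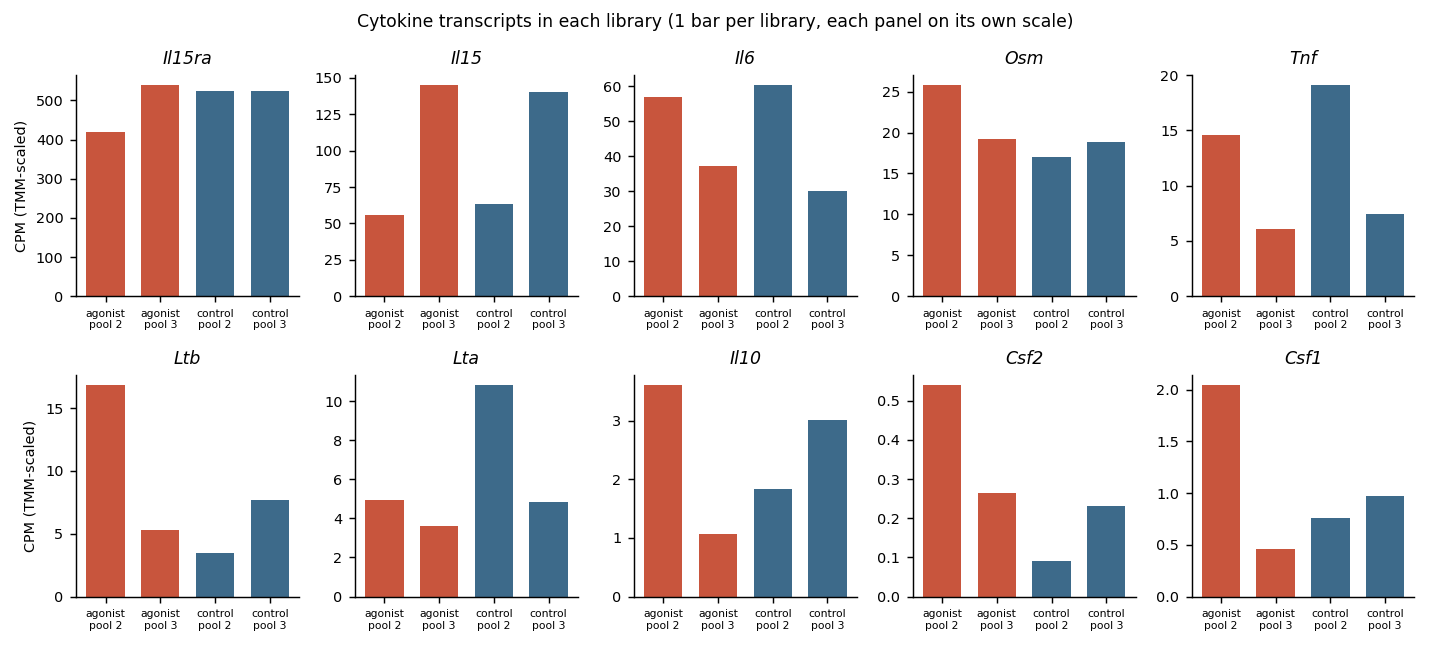
CPM (counts scaled to a common library size) of each cytokine gene in each library, with the 2 agonist libraries (red) left of the 2 control libraries (blue), each panel on its own scale from 0. The agonist bars both stand above the control bars for Osm and Csf2 alone, for Osm by 19.2 against 18.8 CPM in pool 3. For Il6, Tnf and Il15 the bars fall together by pool.

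Promoter sequence was available for 7 of the members from RefSeq (GRCm38.p6), and is shown for Il6, Tnf and Lta, whose values were lower in both libraries of pool 3, and for Ltb, which lies beside Tnf and Lta and did not share that profile. Each run is the 250 bases before the RefSeq start, read 5′ to 3′ on the gene's strand, at chr5:30012864-30013113 (plus strand) for Il6, chr17:35202008-35202257 (minus strand) for Tnf, chr17:35205352-35205601 (minus strand) for Lta and chr17:35194257-35194506 (plus strand) for Ltb. Capitals mark matches of either strand to the kappaB consensus, the binding motif of NF-kB, to the AP-1 motif TGANTCA or to the cyclic AMP response element TGACGTCA, and none of these matches overlaps another.
Il6: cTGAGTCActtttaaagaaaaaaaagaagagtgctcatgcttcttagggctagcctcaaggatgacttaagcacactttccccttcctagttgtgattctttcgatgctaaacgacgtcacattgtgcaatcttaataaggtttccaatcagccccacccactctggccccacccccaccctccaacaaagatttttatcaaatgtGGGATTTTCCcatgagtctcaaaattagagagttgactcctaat
Tnf: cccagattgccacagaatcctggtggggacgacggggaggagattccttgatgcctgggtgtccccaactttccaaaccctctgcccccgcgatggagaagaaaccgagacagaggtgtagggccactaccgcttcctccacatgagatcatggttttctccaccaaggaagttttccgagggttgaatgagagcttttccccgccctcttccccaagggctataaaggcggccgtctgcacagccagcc
Lta: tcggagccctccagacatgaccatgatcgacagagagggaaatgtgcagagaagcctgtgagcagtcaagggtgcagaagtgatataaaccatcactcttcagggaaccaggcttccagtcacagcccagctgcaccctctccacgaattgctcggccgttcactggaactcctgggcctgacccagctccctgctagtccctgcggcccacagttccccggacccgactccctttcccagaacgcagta
Ltb: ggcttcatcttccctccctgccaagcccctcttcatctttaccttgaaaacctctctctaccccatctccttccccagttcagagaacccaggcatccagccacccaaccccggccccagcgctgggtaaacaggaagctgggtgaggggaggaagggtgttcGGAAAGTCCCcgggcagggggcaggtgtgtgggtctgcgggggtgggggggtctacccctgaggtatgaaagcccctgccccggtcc
In windows of 300 bases that reach 50 bases past the start, the kappaB consensus was found in Il6 (44 bases before the start), Ltb (87 bases) and Csf1 (154 bases), and in 8.46% of all 32851 promoter windows. The AP-1 motif was found in Il6 (249 bases before the start) and in 1 of the 2 windows of Il15ra (30 bases), and in 7.81% of all windows. The cyclic AMP element was in none of the 7 members' windows and in 1.79% of all windows. A match is a stretch of letters and not a shown binding site, and the runs of Tnf and Lta hold no match within these bases.

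Il6 encodes interleukin-6, which drives acute-phase and T helper 17 responses through gp130. The gene (ENSMUSG00000025746.11, chromosome 5, 30013114 to 30019981, GRCm38) had 56.8 and 37.3 CPM in the agonist wells of pools 2 and 3, against 60.3 and 30.1 CPM in the control wells. Both libraries of pool 2 were high and both of pool 3 low, and the conditions overlapped. The agonist mean of 47.1 ± 13.8 CPM and the control mean of 45.2 ± 21.4 CPM (SD, n = 2 each) differed by less than the spread between pools. The fitted agonist effect was 0.06 on the log2 scale (SE 0.42, 95% interval -0.96 to 1.08). With the pool as a replicate block it was 0.11 (SE 0.27, 95% interval -0.49 to 0.72). Within pools the agonist-minus-control difference was -0.09 in pool 2 (counting interval -0.16 to -0.01) and 0.31 in pool 3 (0.22 to 0.41).

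Osm encodes oncostatin M, a gp130 cytokine made by activated myeloid cells that acts on stromal and endothelial cells. The gene (ENSMUSG00000058755.3, chromosome 11, 4236420 to 4241026) had 25.8 and 19.2 CPM in the agonist wells of pools 2 and 3, against 17 and 18.8 CPM in the control wells. Agonist replicate 2 stood above the other libraries, which lay close together. As a log2 fold change this came to 0.33 (SE 0.32, 95% interval -0.45 to 1.11, edgeR adjusted p = 0.9999). Nearly all of that difference came from pool 2, at 0.6 (counting interval 0.47 to 0.73), with 0.03 in pool 3 (-0.1 to 0.16). The pool 3 value turned to -0.04 when libraries were scaled by total counts only.

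Ltb, Tnf and Lta are neighbours in the major histocompatibility region of chromosome 17 and belong to the TNF ligand family. Ltb lies at 35194439 to 35196320 on the plus strand, and Tnf (35199381 to 35202007) and Lta (35203165 to 35205351) lie on the minus strand, within 10913 bases in all. The gap between Ltb and Tnf is 3060 bases and that between Tnf and Lta is 1157 bases. TNF and lymphotoxin alpha are soluble trimers that share receptors, whereas lymphotoxin beta anchors lymphotoxin alpha at the cell surface in a complex that binds the lymphotoxin beta receptor. Tnf and Lta had the same order of the libraries, with control replicate 2 highest and agonist replicate 3 lowest, whereas Ltb had control replicate 2 lowest and agonist replicate 2 highest.

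Tnf (ENSMUSG00000024401.14) had 14.6 and 6.05 CPM in the agonist wells of pools 2 and 3, against 19.1 and 7.41 CPM in the control wells. The pool 2 libraries were both above the pool 3 libraries, and within each pool the agonist well was lower. For the fit this gave a log2 fold change of -0.36 (SE 0.61, 95% interval -1.84 to 1.13), with -0.38 in pool 2 (counting interval -0.53 to -0.24) and -0.29 in pool 3 (-0.51 to -0.08). The within-pool values were of like size. The means of 10.3 ± 6.07 CPM in agonist and 13.2 ± 8.24 CPM in control wells (SD, n = 2 each) differed by less than these SDs. Such SDs hold the difference between the pools and so are no measure of the agonist effect within pools. Blocking on the pool gave -0.34 for Tnf, at an SE of 0.32, and its 95% interval, from -1.06 up to 0.39, still held 0.

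Lta (ENSMUSG00000024402.5) had 4.92 and 3.61 CPM in the agonist wells of pools 2 and 3, against 10.8 and 4.84 CPM in the control wells. Control replicate 2 was high, and the other 3 libraries lay close together. Among the members its fitted effect was the lowest, at -0.87 on the log2 scale (SE 0.52, 95% interval -2.12 to 0.38, unadjusted p = 0.139, edgeR adjusted p = 0.9999), with -1.13 in pool 2 (counting interval -1.36 to -0.91) and -0.42 in pool 3 (-0.7 to -0.15). With the pool as a replicate block its value was -0.78 (SE 0.39, 95% interval -1.66 to 0.09), and without control replicate 2 it was -0.18. Lymphocytes are a main source of lymphotoxin alpha. All 10 T cell markers were lower in the agonist well of both pools, with a summed level of 605 and 289 CPM in the agonist wells of pools 2 and 3, against 862 and 434 CPM in the control wells. Of 8 B cell markers, 7 were lower in both, with a sum of 659 and 349 CPM in agonist and 751 and 419 CPM in control wells. The decrease was not particular to lymphocytes. Of 6 plasmacytoid dendritic cell markers, 5 were lower in both, with a sum of 841 and 502 CPM in agonist and 1100 and 712 CPM in control wells. The stromal and endothelial sum was lower in both pools as well, and the conventional dendritic cell sum was higher in both. The part of any of these cells in the Lta values was not tested.

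Ltb (ENSMUSG00000024399.5) had a wide range over the libraries, with 16.8 and 5.31 CPM in the agonist wells of pools 2 and 3 and 3.45 and 7.66 CPM in the control wells. Agonist replicate 2 was the highest library and control replicate 2 the lowest, and the conditions overlapped because agonist replicate 3 lay below control replicate 3. Fitted over all 4 libraries its agonist effect was 0.99 (log2, SE 0.67, 95% interval -0.62 to 2.6), and it was -0.03 without agonist replicate 2. Within pools it was 2.27 (counting interval 2.03 to 2.54) in pool 2 and -0.53 (-0.75 to -0.31) in pool 3. The ratio of Lta to Ltb in TPM was accordingly 0.322 and 0.747 in the agonist wells of pools 2 and 3, against 3.44 and 0.693 in the control wells. Control replicate 2 thus was the library in which Lta exceeded Ltb per length, and in the other 3 Ltb was the higher.

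Agonist replicate 2 was the highest library for 5 of the 10 members, against 25.7% of all tested genes. For 3 of the 10, Ltb, Osm and Csf2, control replicate 2 was at the same time the lowest, a pattern that 10.9% of all tested genes had. Other genes with reads mostly in agonist replicate 2 included Il22, an epithelium-protecting cytokine of innate lymphoid and T cells, with 184 and 8 reads in the agonist wells of pools 2 and 3 and 4 and 11 in the control wells. The mast cell protease Mcpt4 had 189 and 38 reads in agonist and 0 and 0 in control wells, and Cpa3 had 159 and 22 in agonist and 24 and 30 in control wells. The mast cell list summed to 447 and 833 CPM in agonist and 476 and 790 CPM in control wells, most of it Kit. The NK and innate lymphoid list summed to 509 and 410 CPM in agonist and 532 and 394 CPM in control wells. Nearly all of it was Il7r, at 488 and 401 CPM in agonist and 507 and 375 CPM in control wells. Of the 8 markers of this list, 2 had higher and 6 lower fitted values with the agonist, and 0 were called. The part of such cells in the Ltb, Osm and Csf2 values was not tested.

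**Figure D3:**
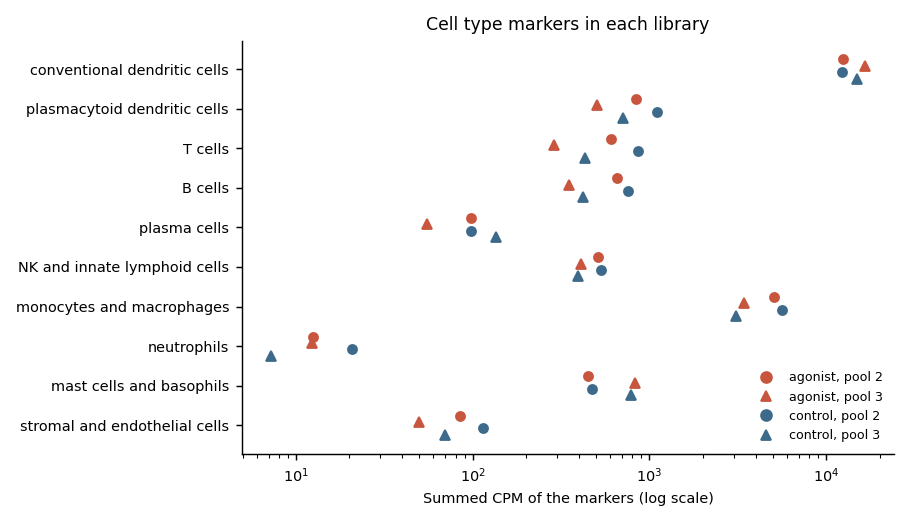
Summed CPM of the markers of each cell type on a log scale, with agonist (red) above control (blue) and pool 2 as circles and pool 3 as triangles. T cell markers lie at 605 and 289 CPM in the agonist and 862 and 434 CPM in the control wells of pools 2 and 3. Dendritic cell markers lie at 12300 to 16500 CPM in all libraries. Most of that sum is Ccr7, at 7370 and 13400 CPM in the agonist and 10100 and 12300 CPM in the control wells. The sum hides other shifts: H2-Ab1 had 3800 and 2010 CPM in the agonist and 1510 and 1740 CPM in the control wells.

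Of the members, Il15ra gave the most reads in every library. Il15 (ENSMUSG00000031712.10, chromosome 8, 82331632 to 82403222) encodes the cytokine, and Il15ra (ENSMUSG00000023206.16, chromosome 2, 11705290 to 11734317) the receptor chain that carries it on the surface of the presenting cell. Il15 had 55.8 and 145 CPM in the agonist wells of pools 2 and 3, against 63.1 and 140 CPM in the control wells. Pool 3 was high and pool 2 low in both conditions. In the fit the agonist effect was -0.01 (log2, SE 0.56, 95% interval -1.37 to 1.34), a direction that turned with DESeq2's size factors. With the pool as a replicate block it was -0.06 (SE 0.24, 95% interval -0.6 to 0.49). The within-pool differences were -0.18 in pool 2 and 0.06 in pool 3, the last turning to -0.01 with total counts only. Il15ra had 419 and 539 CPM in the agonist wells of pools 2 and 3, against 524 and 523 CPM in the control wells. Agonist replicate 2 was the low library. In the fit with group alone it had an agonist effect of -0.13 (log2, SE 0.26, 95% interval -0.76 to 0.5). That was the narrowest interval of the members in this fit, and a rise of more than 0.5 lay outside it. With the pool as a replicate block Il15ra was at -0.14 (SE 0.24, 95% interval -0.68 to 0.4), an interval about as wide as that of Il15. The ratio of Il15 to Il15ra in TPM was 0.262 and 0.53 in the agonist wells of pools 2 and 3, against 0.237 and 0.525 in the control wells, and it followed the pool.

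Il10 (ENSMUSG00000016529.5, chromosome 1, 131019845 to 131024974) encodes interleukin-10, which limits antigen presentation and inflammatory cytokine release. It had 3.6 and 1.06 CPM in the agonist wells of pools 2 and 3, against 1.84 and 3.01 CPM in the control wells, from 60 to 187 reads a library. The agonist wells held both the highest and the lowest value. Between these extremes the fitted effect was -0.06 (log2, SE 0.71, 95% interval -1.78 to 1.66), against -0.26 with the pool as a replicate block and -0.3 with limma-voom, and the within-pool differences were 0.95 in pool 2 (counting interval 0.58 to 1.37) and -1.47 in pool 3 (-1.96 to -1.07). In TPM, the ratio of Il6 to Il10 was 8.52 and 19 in the agonist wells of pools 2 and 3, against 17.7 and 5.4 in the control wells, so that the balance of these cytokines moved in opposite directions in the pools.

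Csf1 (ENSMUSG00000014599.10, chromosome 3, 107741048 to 107760469), which encodes the macrophage growth factor M-CSF, had 2.04 and 0.458 CPM in the agonist wells of pools 2 and 3, against 0.758 and 0.976 CPM in the control wells. As for Il10, the agonist wells held the highest and the lowest value. Its fitted effect was 0.52 (log2, SE 0.85, 95% interval -1.53 to 2.58), against 0.19 with the pool as a replicate block and 0.13 with limma-voom, and the within-pool differences were 1.38 in pool 2 (counting interval 0.85 to 2.04) and -1.03 in pool 3 (-1.83 to -0.38). Csf2 (ENSMUSG00000018916.5, chromosome 11, 54247271 to 54249667) encodes GM-CSF, a growth and activating factor of dendritic cells, macrophages and granulocytes. It had 28 and 15 reads in the agonist wells of pools 2 and 3, against 4 and 12 reads in the control wells. An effect of 1.3 (log2, SE 1.08, 95% interval -1.32 to 3.91, edgeR adjusted p = 0.9999) was the highest of the members and rested on these few reads, with 2.14 in pool 2 (counting interval 1.04 to 4.52) and 0.18 in pool 3 (-0.99 to 1.43). Exons of Csf2 overlap the antisense gene Gm12223. With a library kit that does not mark strand, reads in the shared stretch overlap both genes, and reads overlapping several genes were not counted. The counts and TPM of Csf2 may then be too low.

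Leaving out 1 library turned the sign of the agonist log2 fold change for 7 of the 10 members, all but Lta, Osm and Csf2. Such fits hold unequal pools in the groups, so the difference between the pools enters them.

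**Figure D4:**
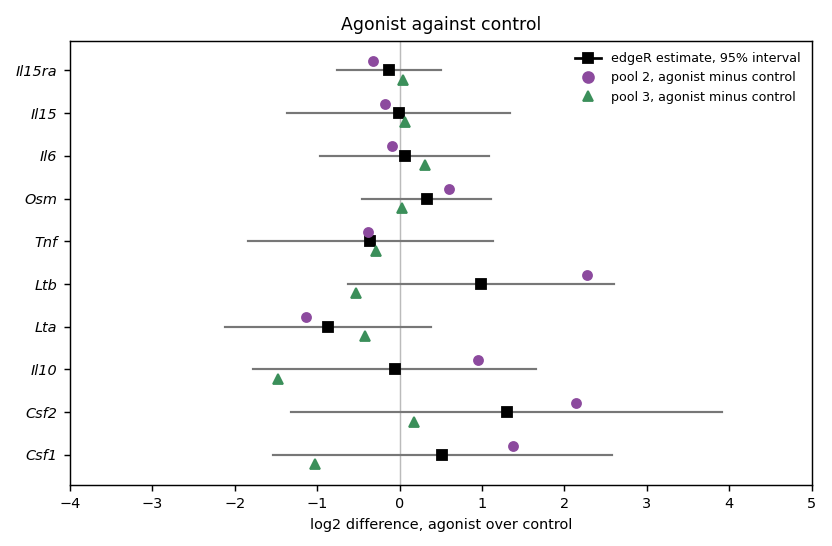
Log2 difference of agonist over control for each cytokine gene, with squares and lines for the edgeR estimate and its 95% interval, circles for pool 2 and triangles for pool 3. Every interval crosses 0, and the pools lie on opposite sides of 0 for 6 of the 10 genes, with Ltb at 2.27 and -0.53.

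Set by pool, Il15 had higher values and Tnf, Il6 and Lta lower values in pool 3, and again no member passed edgeR's test. With the treatment as a covariate, 0 of 10 members were called between pool 3 and pool 2, against 0.394% of all tested genes, which is 72 genes. Unadjusted p values under 0.05 were found for 3 members, Il15, Tnf and Il6, against 13.9% of all tested genes. DESeq2 called 2 members, Il15 and Tnf, against 4.01% of all genes it tested, and limma-voom called 1, Il15, against 1.5%. With no filter on low counts edgeR called 1 member, Il15, against 2.1% of all genes. The pools did not overlap for 4 of the 10 members, Il6, Tnf, Lta and Il15, against 49.2% of all tested genes. The median log2 difference of the members was -0.4, against -0.01 over all tested genes. Each arm is 1 pool with 2 wells, so the p-values say nothing of the variation from mouse to mouse.

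Il15 had the largest positive difference of the members, with 142 ± 4.15 CPM in pool 3 and 59.4 ± 5.19 CPM in pool 2 (SD over 2 wells each). Its log2 difference was 1.26 (SE 0.24, 95% interval 0.71 to 1.82, unadjusted p = 0.000603), and its edgeR adjusted p of 0.0733 missed the threshold. DESeq2 gave an adjusted p of 0.000312, limma-voom 0.0309 and edgeR with no filter on low counts 0.00777. Il15ra did not follow, with 531 ± 11.4 CPM in pool 3 and 472 ± 74.5 CPM in pool 2, and a log2 difference of 0.18 (SE 0.24, 95% interval -0.36 to 0.72).

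Tnf, Il6 and Lta were lower in pool 3 in both conditions. Tnf had 6.73 ± 0.963 CPM in pool 3 and 16.9 ± 3.13 CPM in pool 2 (SD over 2 wells each), with a log2 difference of -1.32 (SE 0.32, 95% interval -2.05 to -0.59, edgeR adjusted p = 0.113, DESeq2 adjusted p = 0.0253). For Il6 the levels were 33.7 ± 5.15 CPM in pool 3 and 58.5 ± 2.44 CPM in pool 2, and the log2 difference was -0.8 (SE 0.27, 95% interval -1.41 to -0.2, edgeR adjusted p = 0.221). Lta stood at 4.23 ± 0.869 CPM in pool 3 and 7.87 ± 4.17 CPM in pool 2, with a log2 difference of -0.8 (SE 0.39, 95% interval -1.68 to 0.07, edgeR adjusted p = 0.401). Without control replicate 2, and with pool as the only term, that of Lta was -0.21. These directions were the same in agonist and control wells, at -1.27 and -1.36 for Tnf, -0.6 and -1 for Il6, and -0.44 and -1.15 for Lta. The markers of monocytes and macrophages, which make TNF and IL-6, summed to 3420 and 3090 CPM in the agonist and control wells of pool 3, against 5040 and 5610 CPM in those of pool 2. Most of that sum was Lyz2, at 2860 and 2540 CPM in pool 3 and 4270 and 4670 CPM in pool 2. Of the 10 markers 7 had lower and 3 higher fitted values in pool 3, and Cd14 was among the higher, with 16.2 and 15.6 CPM in pool 3 and 8.67 and 10.6 CPM in pool 2. The T cell and B cell sums given above were lower in pool 3 too. So were those of NK and innate lymphoid, neutrophil, and stromal and endothelial markers. Plasmacytoid dendritic cell markers summed to 502 and 712 CPM in the agonist and control wells of pool 3, against 841 and 1100 CPM in pool 2. The conventional dendritic and mast cell sums were higher in pool 3, and the plasma cell sum had no shared direction. Of Tnf, Il6 and Lta, Il6 alone has a kappaB match in the promoter run printed above. The part of any of these cell types in the cytokine values was not tested.

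For Ltb, Il10, Csf1, Csf2 and Osm the pools overlapped, and the pool difference had opposite signs in agonist and control wells. Ltb was at -1.65 in the agonist and 1.14 in the control wells, Il10 at -1.73 and 0.7, and Csf1 at -2.06 and 0.35. Csf2 was at -0.93 in agonist and 1.04 in control wells, and Osm at -0.42 and 0.15. Their fitted pool differences were -0.27 (SE 0.64) for Ltb, -0.52 (SE 0.68) for Il10, -0.89 (SE 0.84) for Csf1, 0.06 (SE 1.25) for Csf2 and -0.14 (SE 0.31) for Osm.

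**Figure D5:**
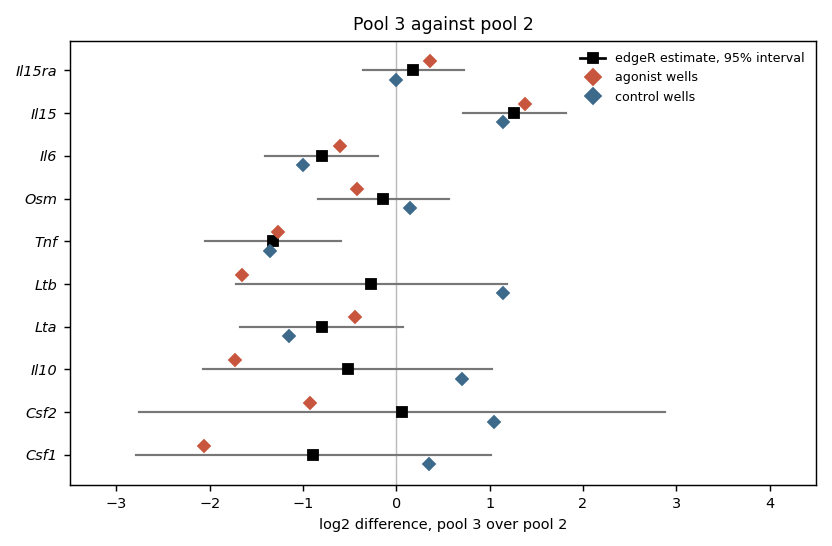
Log2 difference of pool 3 over pool 2 for each cytokine gene, with squares and lines for the edgeR estimate and its 95% interval, and diamonds for the agonist wells (red) and the control wells (blue). Il15 lies right of 0 at 1.26, and Tnf at -1.32 and Il6 at -0.8 lie left of it in both conditions.

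Transcripts of most receptors for these cytokines were read, and none passed the test. Of 16 receptor genes 15 were tested, and 0 were called between agonist and control, with 8 higher and 7 lower and a median log2 fold change of 0.01. Csf2ra, the GM-CSF receptor alpha chain, had 16.5 and 7.92 CPM in the agonist wells of pools 2 and 3, against 6.41 and 7.39 CPM in the control wells, and a log2 fold change of 0.82 (SE 0.46). Tnfrsf14, a receptor of lymphotoxin alpha and LIGHT, had a log2 fold change of -0.52 (SE 0.35), Il6ra, the IL-6 receptor, one of -0.73 (SE 0.58), and Il2rb, the signalling chain that receives IL-15, one of -0.43 (SE 0.36). Between pool 3 and pool 2 0 receptors were called and 1 of 15 had an unadjusted p under 0.05, against 13.9% of all tested genes. That receptor was Il2rb, at -0.62 (SE 0.24, edgeR adjusted p = 0.293). Tnfrsf1a, the TNF receptor of most cell types, was at 0.55 (SE 0.27) and Il2rg, the common gamma chain, at -0.42 (SE 0.25). Osmr, the oncostatin M receptor, was not tested, with 23 reads in agonist replicate 2 and 0 in the other libraries.

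The list of genes that shed cytokines from the membrane or control the decay of their mRNAs gave 0 calls among 12 tested members in both comparisons. With the agonist 6 were higher and 6 lower, with a median log2 fold change of 0.06. Rhbdf2, which brings the TNF-releasing protease ADAM17 to the surface, had 69.3 and 57 CPM in the agonist wells of pools 2 and 3, against 31.2 and 45.2 CPM in the control wells. The conditions did not overlap for it, and it was higher by 0.73 on the log2 scale (SE 0.32, unadjusted p = 0.0592, edgeR adjusted p = 0.9999). Zfp36l1, an mRNA-destabilising protein, was at 0.47 (SE 0.28), Adam10 at 0.51 (SE 0.36) and Rc3h1, which encodes roquin-1, at -0.43 (SE 0.31). Adam10 was higher with the agonist in pool 2 alone, at 129 against 57.1 CPM, with 96.5 against 101 CPM in pool 3. Between the pools Zfp36l2, of the same family as Zfp36l1, had 1.15 and 1.9 CPM in the agonist and control wells of pool 3, against 4.73 and 6.16 CPM in those of pool 2, and a log2 difference of -1.87 (SE 0.44, edgeR adjusted p = 0.106). Adam17 was at -0.53 (SE 0.24), and Zc3h12a, the RNase regnase-1 that cleaves Il6 mRNA, at -0.49 (SE 0.31).

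Among 30 other cytokine genes 14 had enough reads to be tested, and 0 were called in either comparison. With the agonist 7 were higher and 7 lower. Lif, a gp130 cytokine related to oncostatin M, had 69 and 246 reads in the agonist wells of pools 2 and 3, against 368 and 327 in the control wells, with a log2 fold change of -1.37 (SE 0.63, unadjusted p = 0.071, edgeR adjusted p = 0.9999). For Il22 the value was 3.57 (SE 1.48), from the reads given above, for Tgfb1 1.11 (SE 0.6) and for Tnfsf15 -0.81 (SE 0.5). Tgfb1 had 32.8 and 9.33 CPM in the agonist wells of pools 2 and 3, against 8.59 and 10.9 CPM in the control wells. Its value thus came from agonist replicate 2, and in pool 3 the agonist well was the lower. Between pool 3 and pool 2 the median log2 difference of this list was -0.74, against -0.01 over all tested genes, and 5 of its 14 tested members had an unadjusted p under 0.05, against 13.9% of all tested genes. Il16, a chemoattractant of CD4+ cells, was at -1.05 (SE 0.24, edgeR adjusted p = 0.101), Clcf1, another gp130 cytokine, at -0.88 (SE 0.3), and Il7, a T cell survival factor, at 1.05 (SE 0.34). Tnfsf13b, which encodes the B cell factor BAFF, had 77 and 36 reads in the agonist and control wells of pool 3, against 6 and 1 in those of pool 2, and a log2 difference of 4 (SE 1.08, edgeR adjusted p = 0.137).

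Profiles over the 4 libraries most like those of the 3 members with the widest ranges in log2 CPM (prior count 2) were sought among 9112 genes by Euclidean distance of centred log2 CPM. For Ltb, the nearest was Tnfrsf25, a death-domain receptor of the TNF family, at a distance of 0.13, with 12.8 and 3.84 CPM in the agonist wells of pools 2 and 3 and 2.34 and 5.26 CPM in the control wells. Tk2, a mitochondrial thymidine kinase, followed at 0.15 and Lpcat2, a lipid acyltransferase, at 0.17. For Csf2, Leng8 (0.08), Mib2 (0.08) and Ipo7 (0.1) were nearest, though its own profile is imprecise at 4 to 28 reads. For Csf1, Unc119b (0.18), Rlf (0.33) and Trib2 (0.35) were nearest. With 4 libraries a near profile is a description only.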

How the data were processed

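RNA of CD11c+ mesenteric lymph node cells was sequenced from 2 agonist and 2 control libraries. The authors deposited raw, whole-number counts of reads for each gene. Tools and build were STAR 2.7, HTSeq 0.11.1 and GRCm38 (mm10), per the submitters' processing notes, which as used here give no strand setting. Reads outside genes (15.96% to 19.99%), overlapping several genes (5.77% to 6.5%) or aligned to more than 1 place (6.54% to 6.98%) entered neither library sizes nor tests. All gene identifiers matched GENCODE M21, which gave coordinates and exon lengths.

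Genes were kept with edgeR's expression filter (minimum count 10). The main test was edgeR's two-sided quasi-likelihood test with TMM scaling and group alone, adjusted over all genes by Benjamini-Hochberg. The pool comparison added pool to group. SEs come from the fold change and the F statistic, and intervals are 95%. CPM uses TMM factors (0.947 to 1.05), and log2 CPM of single libraries a prior count of 2. TPM was computed from union exon lengths. R 4.3.3, edgeR 4.0.16, limma 3.58.1, DESeq2 1.42.0, Python 3.11.15, SciPy 1.17.1 and matplotlib 3.10.9 were used, and the fits were tested on simulated counts. Alternatives were other scalings and filters, limma-voom, DESeq2, a replicate block and leaving out each library.

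The protocol divides each sample's cells between wells and the titles number them, so same-numbered libraries are pairs. Their deviations from the group means correlated (r = 0.288 across 18297 genes). The members and lists were chosen with earlier results of these data known. The genes named are all members, up to 4 genes of each of 3 related lists with the smallest p in each comparison, cell type markers, and the 3 nearest profiles (average log2 CPM of at least 2, predicted genes left out) of 3 members. Genes named for reads in a particular library were chosen after their values were seen.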

Additional observations from a re-analysis of the deposited data

Results flagged for a closer look

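The agonist-minus-control difference had opposite signs in pool 2 and pool 3, each beyond counting error, for 6 cytokine genes. With 1 pair of wells per pool, the difference between the pools was not tested, and 50.6% of all tested genes had opposite signs. Ltb was at 2.27 in pool 2 and -0.53 in pool 3 on the log2 scale. Il10 was at 0.95 in pool 2 and -1.47 in pool 3, and Csf1 at 1.38 in pool 2 and -1.03 in pool 3. For Il6 the difference was -0.09 in pool 2 and 0.31 in pool 3. Small differences were seen for Il15, at -0.18 in pool 2 and 0.06 in pool 3, and for Il15ra, at -0.32 in pool 2 and 0.04 in pool 3. The pool 3 values of Il15 and Il15ra turned to -0.01 and -0.03 with total counts only, so their opposite signs depended on the scaling.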

How the results depend on the processing

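The count of members called for the agonist was 0 under every alternative run, though the stricter filter (minimum count 50) left Csf1 and Csf2 untested. The replicate block changed no member's call. It moved the agonist log2 fold change of Csf1 from 0.52 to 0.19 and that of Il10 from -0.06 to -0.26. Smaller shifts were those of Il6, from 0.06 to 0.11, and of Il15, from -0.01 to -0.06. Over all genes the agonist count of 0 became 9 with no filter, 7 with DESeq2, 1 with the replicate block, and 0 to 2 when each library was left out. When each library was left out, the agonist log2 fold change ranged from -0.27 to 0.65 for Il6, -1.09 to 0.48 for Tnf, -1.16 to 0.56 for Il10, -0.87 to 0.73 for Il15, -0.33 to 0.08 for Il15ra, -0.03 to 1.77 for Ltb and -0.88 to 1.22 for Csf1. Signs turned for Il15 with DESeq2 size factors (0.02), the DESeq2 test (0.02) and the stricter filter (0.03), and for Il10 with the stricter filter (0.03). Within pool 3, total counts only turned Il15 to -0.01, Il15ra to -0.03 and Osm to -0.04. Between the pools, 72 genes became 5 with total counts only or with pool as the only term, 8 with the stricter filter, 275 with limma-voom, 600 with no filter, 706 with DESeq2, and with pool as the only term 841 without control replicate 2, 1 without control replicate 3, 1575 without agonist replicate 2 and 10 without agonist replicate 3. The members called between the pools were 1 with no filter or limma-voom, 2 with DESeq2, and 0 to 3 when each library was left out. They were 3 (Il15, Tnf and Lta) without agonist replicate 2 and 1 (Il15) without control replicate 2. The pool difference of Csf2 turned to -0.03 with total counts only, -0.31 with limma-voom, -0.36 with pool as the only term, -1.11 without control replicate 2, -0.31 without control replicate 3 and -0.45 without agonist replicate 3. That of Il10 turned to 0.15 without agonist replicate 2 and likewise to 0.15 without agonist replicate 3, and those of Ltb and Osm to 0.93 and 0.18 without agonist replicate 2. The cause of these changes was not tested. Depth limits Csf2 and Csf1, with 4 to 28 and 26 to 106 reads a library.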

Other observations

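Some of the 16 receptor and 30 other cytokine genes that were too low to test had their reads in few libraries. They were chosen after their values were seen, and a count of 0 allows up to 3 reads. Il2, the T cell growth factor, had 28 and 9 reads in the agonist wells of pools 2 and 3 and 0 in both control wells. Il21, a cytokine of follicular helper T cells, had 32 reads in control replicate 3 and 0 in the other libraries. Tnfsf11, which encodes RANKL, had 25 reads in agonist replicate 2 and at most 1 in any other library. Ifng, the gene of interferon gamma, had 1 and 19 reads in the agonist wells of pools 2 and 3 and 2 and 3 in the control wells. Il3, Il9, Il17a, Il31 and Csf3 had 0 reads in all 4 libraries.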
